A study of Homo sapiens with 14 samples.

Results

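Loss and gain of the same gene were set side by side in untreated colorectal cancer cells. Genes listed in both the knockout and the activation guide tables were taken, and each was given the median log2 fold of its guides, day 20 over day 0, in every screen. Of 19320 gene symbols in either library, 18680 were in both, 18553 could be evaluated in both screens of RKO, 18558 in both screens of SW620 and 18548 in all 4 screens.

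RKO and SW620 are human colorectal cancer lines. RKO is known for an activating BRAF mutation and unstable microsatellites, and SW620 for a truncated APC. For the knockout screens cells carried Cas9 and received the Brunello library, with 4 guides for most genes. For the activation screens they carried dCas9-VP64 and received the Calabrese library, with 3 guides for most genes. All cells had been through blasticidin selection for the Cas9 or dCas9-VP64 construct and puromycin selection for the guide, and the day 0 and day 20 libraries of a screen share both. Each screen was read as 1 library at day 0 and 1 library of untreated cells at day 20. The series also holds oxaliplatin libraries, which are not used here, so 8 of its 14 libraries enter. There is no replicate check: each value compares a pair of libraries, not conditions, and no p-value is given. Guide counts come from genomic DNA, so the labelled cell type cannot be checked against expressed markers, and the level of a targeted gene's RNA or protein was not measured.

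Cas9 cuts a gene's coding sequence and the repair often leaves it without a working product. dCas9-VP64 does not cut: it binds upstream of the start of transcription and its VP64 domain recruits the transcription machinery, which raises the gene's output in the cells where it works. A guide that slows growth becomes rarer as the population divides, so a gene that promotes growth is expected to lose guides when knocked out, and a gene that restrains growth to lose guides when activated.

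The libraries held 31699260 and 34540094 counts at day 0 and day 20 in RKO knockout, 57502347 and 32887159 in RKO activation, and 69526489 and 47429044 in SW620 knockout. SW620 activation was read less deeply, with 22152626 and 3647823 counts, and its day 20 library had a median of 62 counts per guide. The counting error of a typical guide's log2 fold was 0.20 there and 0.08 to 0.11 in the other screens. Non-targeting guides, which have no target in the genome, had an SD of 0.30 in RKO knockout, 0.40 in RKO activation, 0.22 in SW620 knockout and 0.33 in SW620 activation. Their median lay above that of the gene-targeting guides in the knockout screens, at 0.43 in RKO and 0.22 in SW620, and near it in the activation screens, at 0.08 and 0.05. Olfactory receptor genes, silent in most tissues, spanned -0.85 to 0.49 (central 95% of gene medians) in RKO knockout, -0.60 to 0.64 in RKO activation, -0.29 to 0.43 in SW620 knockout and -0.41 to 0.44 in SW620 activation. In the knockout screens the day 0 libraries already held few guides against cytosolic ribosomal proteins, a median scaled count of 140 against 854 for non-targeting guides in RKO and 549 against 1327 in SW620. In the activation screens these were 757 against 781 and 156 against 165. The starting pool of guides was not analysed here, and losses before day 0 are not in any fold below.

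A gene was called lower when its median log2 fold was -1 or less with at most 1 guide on the other side of 0, and higher by the mirror rule. Knockout lowered 2313 of 19090 genes in RKO (12.1%) and 260 of 19100 in SW620 (1.36%). Activation lowered 156 of 18779 genes in RKO (0.831%) and 73 of 18775 in SW620 (0.389%). No gene was called higher in any of the 4 screens. The highest gene medians were 0.89 and 0.99 in RKO knockout and activation and 0.76 and 0.85 in SW620, so gains of guides were small beside losses. As a result every class that needs a called rise is empty at this fold, and the opposed pattern is described further on from the tails of each screen.

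Across genes, the knockout and activation values were close to uncorrelated. Pearson's r over 18553 genes was 0.00 in RKO and over 18558 genes -0.01 in SW620. These are descriptions across genes of a pair of screens in 1 line, and genes are not independent replicates. Among genes lowered by activation, 17 of 155 were also lowered by knockout in RKO (11.0%, against 11.9% of all genes), and 2 of 73 in SW620 (2.74%, against 1.36%). A knockout median above 0 was found for 81 of the 155 in RKO (52.3%, against 52.2% of all genes) and for 47 of the 73 in SW620 (64.4%, against 51.0%). The machinery that most cells need shows the same from the other side. Of 74 cytosolic ribosomal protein genes evaluated in RKO, 72 were lower when knocked out, with a list median of -3.39, while the activation median of the same genes was -0.04 and 2 were lower. All 31 proteasome subunits were lower when knocked out, with a median of -2.90, and 0 were lower when activated, with a median of -0.12. In SW620 the ribosomal list had a knockout median of -0.88, with 32 of 77 lower, and an activation median of 0.04, with 0 lower.

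**Figure D1:**
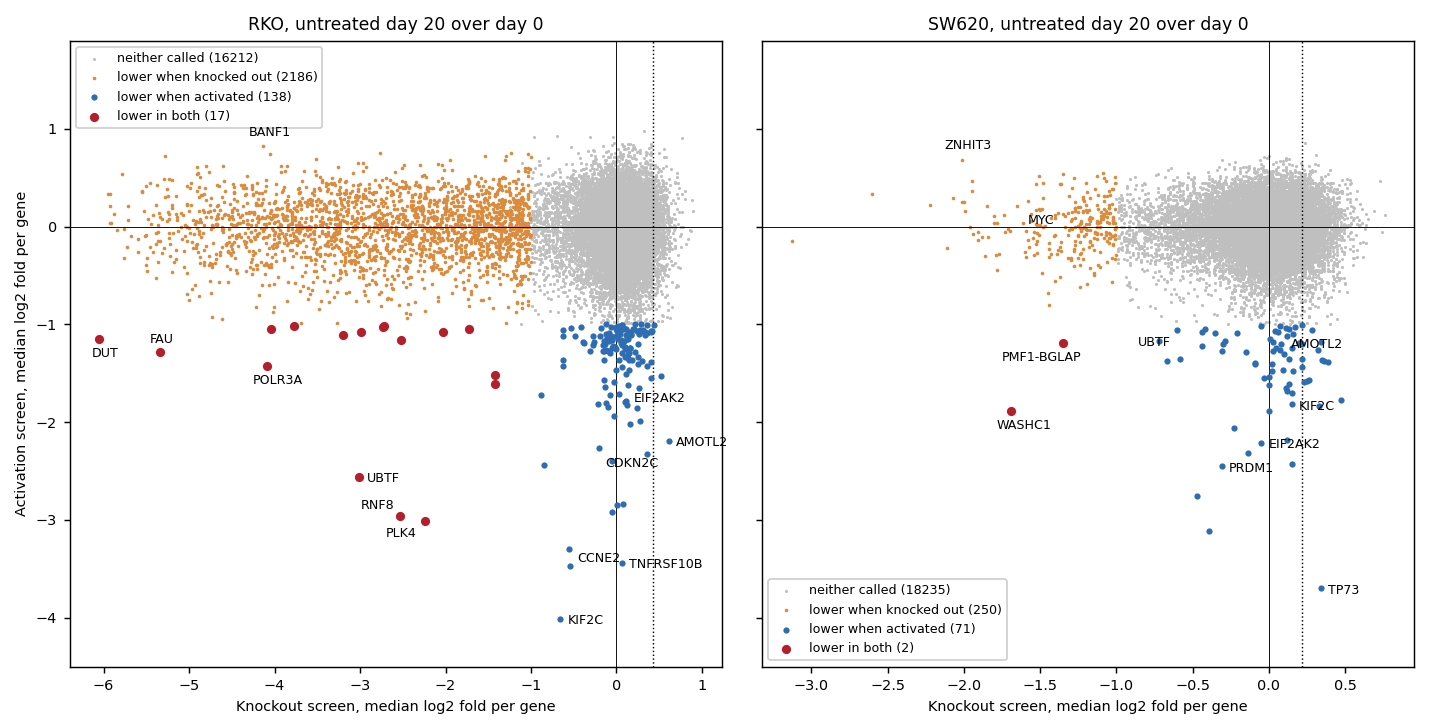
Each point is a gene, with its median log2 fold over guides (day 20 over day 0) in the knockout screen on the horizontal axis and in the activation screen on the vertical axis, for RKO (left) and SW620 (right). Colours give the calls, solid lines mark 0 and the dotted line marks the median of non-targeting guides in the knockout screen; the called genes form a horizontal and a vertical arm, with 17 genes in RKO and 2 in SW620 in the lower left, and none past 1 on the positive side of either axis.

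The class of genes lower both when knocked out and when activated was small. In RKO the class held 17 of 18553 genes (0.0916%), and in SW620 2 of 18558 (0.0108%). In RKO these were 11.0% of the genes lower when activated, near the 11.9% of all genes lower when knocked out. In SW620 the shares were 2.74% and 1.36%, the former from 2 genes. Membership alone therefore shows nothing about a gene. The genes with the largest joint size, the smaller of the pair of losses, were UBTF, RNF8 and PLK4.

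UBTF encodes the factor that shapes and activates the ribosomal RNA genes for RNA polymerase I. Its RKO knockout guides went from scaled counts of 505, 349, 201 and 176 at day 0 to 100, 377, 3 and 9 at day 20. Its RKO activation guides went from 862, 700 and 648 to 524, 43 and 105. Of these 7 guides 6 were rarer at day 20 and 1 knockout guide kept its level, which gives medians of -3.01 when knocked out and -2.56 when activated. In SW620 the activation guides went from 202, 195 and 114 to 148, 84 and 52, with a median of -1.06. The SW620 knockout median was -0.60, with 3 of 4 guides rarer, and did not reach the fold. UBTF was the only member of the RKO class that was also called lower by activation in SW620. Of the 24 genes of RNA polymerase I and ribosomal RNA factors evaluated in RKO, 23 were lower when knocked out and UBTF was the 1 lower when activated.

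RNF8 is a ubiquitin ligase that marks chromatin around DNA breaks. In RKO its knockout guides fell from 578, 537, 258 and 190 to 41, 203, 126 and 9, a median of -2.53. Its activation guides went from 1166, 794 and 388 to 71, 97 and 276, a median of -2.96. All 7 guides were rarer at day 20, the third activation guide least so, at -0.48. In SW620 the RNF8 medians were -0.46 and -0.55, neither called.

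PLK4 is the kinase that starts the duplication of centrioles, the cores of the spindle poles. Its RKO knockout guides went from 398, 327, 264 and 218 to 29, 173, 4 and 255, a median of -2.24. Its RKO activation guides went from 777, 466 and 218 to 92, 0 and 55, a median of -3.01. One knockout guide was not lost, while all 3 activation guides were, one of them to a count of 0, where the fold is set by the pseudocount of 5. In SW620 PLK4 was lower when knocked out, at -1.17, and had an activation median of 0.29, with 2 of 3 activation guides above 0.

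The other 14 genes in the RKO class had activation medians between -1.61 and -1.02. They include basic machinery of gene expression: POLR3A, the largest subunit of RNA polymerase III, at -4.09 knocked out and -1.43 activated, and SNRNP70, the 70K protein of the U1 splicing particle, at -1.42 and -1.61. FAU, whose product is cut into a ubiquitin-like protein and a small-subunit ribosomal protein, had -5.34 and -1.28, and RPS4X, another ribosomal protein of the small subunit, had -3.77 and -1.02. WDR43, a factor of ribosome biogenesis, had -2.72 and -1.02, and NAA15, which carries the N-terminal acetyltransferase NatA on the ribosome, had -2.73 and -1.03. DUT, the enzyme that clears dUTP so that it does not enter DNA, had the deepest knockout loss of the class, -6.05, and an activation median of -1.15.

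The remaining members have different roles. TRAIP, a ubiquitin ligase at stalled replisomes, had medians of -2.99 and -1.08. TRIB1, a pseudokinase that brings substrates to the ubiquitin ligase COP1, had -1.42 and -1.52, and all of its 4 knockout and 3 activation guides were rarer at day 20. SETD1B, a histone H3 lysine 4 methyltransferase, had -2.03 and -1.08. EMC6, a subunit of the complex that inserts membrane proteins into the endoplasmic reticulum, had -2.52 and -1.16, IBA57, an iron-sulfur cluster assembly factor, had -4.04 and -1.05, and MPHOSPH6, an RNA exosome cofactor, had -1.72 and -1.05. BCL2L2-PABPN1, at -3.20 and -1.11, is a readthrough symbol for a pair of neighbouring genes, so which of them its guides hit is uncertain.

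FAU shows how little can lie behind an activation median. It had only 2 usable activation guides in RKO, 1 of which went from 316 to 35 while the other went from 477 to 658. When every guide was required to lie below 0, the RKO class kept 12 of its 17 genes and lost EMC6, FAU, NAA15, PLK4 and UBTF. At a fold of 1.5 it kept 3, UBTF, RNF8 and PLK4.

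In SW620 the class held WASHC1 and PMF1-BGLAP, and neither is a clean single gene. WASHC1, a subunit of the WASH complex of endosomes, has near-identical copies in the genome, and PMF1-BGLAP is a readthrough symbol, so both are uncertain. WASHC1 had a knockout median of -1.69 and activation guides that went from 261, 181 and 164 to 67, 190 and 32, a median of -1.89. PMF1-BGLAP had -1.35 and -1.19, the latter from 2 guides. No gene was in the class in both lines. Of the 17 RKO genes, which SW620 did not choose, 16 had a SW620 knockout median below 0 and 6 were called lower there (35.3%). Of all genes lowered by knockout in RKO, 88.5% were below 0 and 10.6% called lower in SW620 knockout. The SW620 activation median was below 0 for 12 of the 17 (70.6%, against 50.3% of all genes). Among all genes lower when activated in RKO this share was 74.2%, so it is not particular to the class.

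A set of 14 genes was lowered by activation in both lines, 9.03% of the 155 RKO genes and 19.2% of the 73 SW620 genes. More widely, 115 of the 155 RKO genes lay below 0 in the SW620 activation screen (74.2%, against 50.3% of all genes), with a median of -0.22, and 56 of the 73 SW620 genes lay below 0 in RKO (76.7%), with a median of -0.36. Of the 14, UBTF alone was called lower when knocked out, and in RKO only, where 11.9% of all genes were, against 1.36% in SW620. A knockout median above 0 was found for 6 of the 14 in RKO and 6 in SW620, against 52.2% and 51.0% of all genes, so these counts do not set the 14 apart. They were singled out after their values were seen, except for AMOTL2, CDKN2C, TNFRSF10B and UBTF, which the rule for named genes gives.

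**Figure D2:**
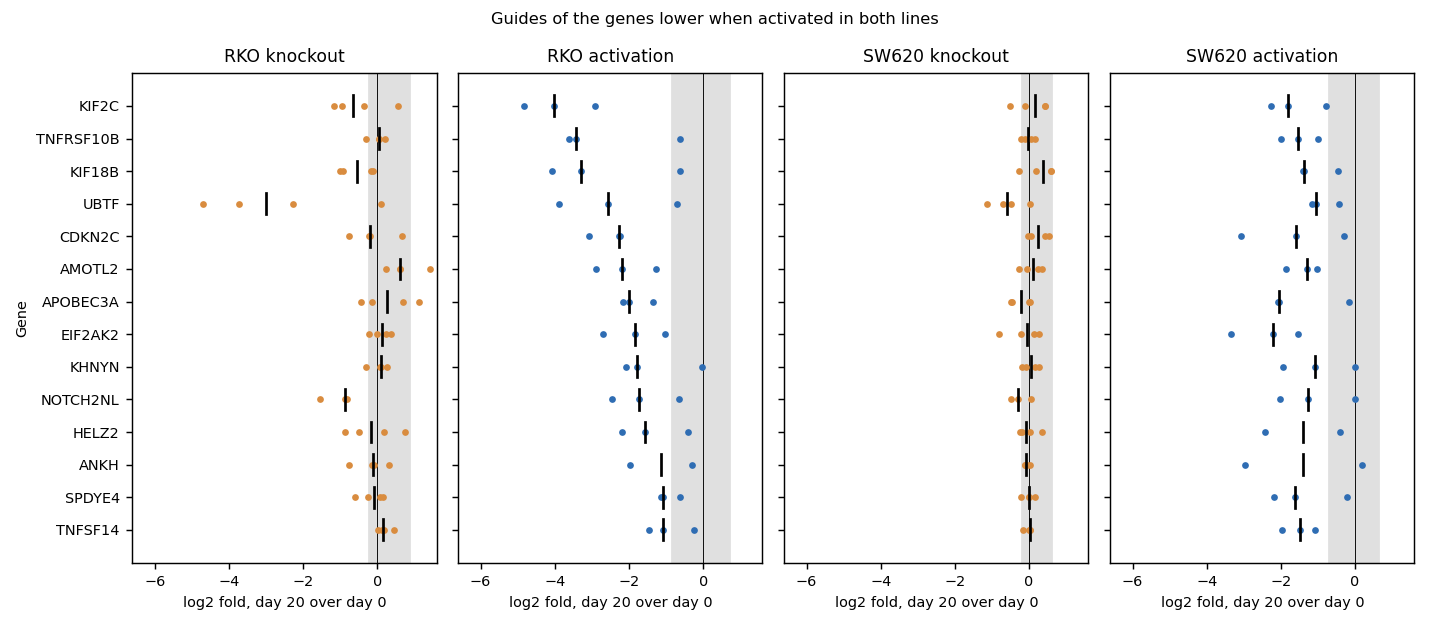
Each dot is a guide of a gene lowered by activation in both lines, at its log2 fold of day 20 over day 0, in the knockout (orange) and activation (blue) screens of RKO and SW620; black bars are gene medians and the grey band spans the central 95% of non-targeting guides. Activation medians lie left of the band in every row of both activation panels, while the knockout median furthest from the band is that of UBTF in RKO.

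KIF2C and KIF18B are motor proteins of the spindle. KIF2C takes tubulin off microtubule ends, and KIF18B works with it at the plus ends. KIF2C had the deepest activation loss in RKO, where its guides went from 506, 465 and 324 to 27, 57 and 7, a median of -4.01. In SW620 they went from 140, 118 and 115 to 79, 30 and 20, a median of -1.82. All 6 guides were rarer at day 20. Its knockout guides, in contrast, had medians of -0.66 in RKO and 0.15 in SW620, and neither was called. KIF18B activation guides went from 449, 302 and 294 to 289, 13 and 25 in RKO, a median of -3.30, and its SW620 activation median was -1.39. Its knockout medians were -0.55 and 0.39.

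CDKN2C encodes p18INK4c, an inhibitor of CDK4 and CDK6. Its activation guides went from 391, 213 and 171 to 77, 41 and 16 in RKO, a median of -2.27. They went from 153, 79 and 54 to 123, 5 and 15 in SW620, a median of -1.58. All 6 were rarer at day 20, while the knockout medians were -0.21 and 0.25. Neither knockout median was called.

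TNFRSF10B, the death receptor DR5 for the ligand TRAIL, had activation guides that went from 526, 419 and 315 to 44, 29 and 203 in RKO and from 125, 79 and 65 to 39, 37 and 12 in SW620. The medians were -3.44 and -1.55, against knockout medians of 0.06 and -0.03. The related receptor TNFRSF10A was lower in RKO, at -1.82, and lay just short of the fold in SW620. TNFSF14, a ligand of the TNF family also called LIGHT, had activation medians of -1.08 and -1.48. CASP8, the caspase that death receptors switch on, had -1.47 in RKO and -0.73 in SW620. Of the 23 pro-death genes evaluated, 3 were lower when activated in RKO (13.0%, against 0.835% of all genes) and 1 in SW620 (4.35%, against 0.393%), and their median was -0.08 in RKO and -0.09 in SW620.

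EIF2AK2 is PKR, a kinase that stops translation when it binds double-stranded RNA. Its activation guides went from 448, 298 and 209 to 217, 80 and 28 in RKO, a median of -1.83. They went from 189, 147 and 145 to 37, 10 and 47 in SW620, a median of -2.21, the deepest of the 14 in that line. All 6 were rarer, and the knockout medians were 0.12 and -0.05. HELZ2, an interferon-induced helicase, had activation medians of -1.57 and -1.41. The SW620 value came from usable guides at -0.40 and -2.43, the latter with a day 20 count of 4, so that call rests on 1 guide. KHNYN, a cofactor of the antiviral protein ZAP, had -1.79 and -1.07. APOBEC3A, a cytidine deaminase that edits single-stranded DNA, had -1.99 and -2.06. It has close paralogues, so its guides may not be specific to it.

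ANKH, a membrane protein of pyrophosphate export, had activation medians of -1.14 and -1.40, each from 2 guides of which 1 in SW620 was above 0. Without the filter on rare guides its SW620 median was 0.18, so that call rests on 1 guide. SPDYE4, of the Speedy family of CDK activators, had -1.09 and -1.62, and NOTCH2NL had -1.72 and -1.27. Both belong to families of near-identical copies and are uncertain.

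Activation guides act on the sequence before the transcription start, so that stretch is shown for genes of the set and for CDKN1A, the cell cycle inhibitor described below. The lines give the 250 bases upstream of the start in RefSeq's table for GRCh38.p14, on the gene's own strand, with every run that matches NGG on the printed strand in capitals. NGG is the motif a Cas9 guide needs beside its target. The guide sequences were not in the tables used here, so which of these sites a guide used is not known.
KIF2C, chr1:44739587-44739836, plus strand: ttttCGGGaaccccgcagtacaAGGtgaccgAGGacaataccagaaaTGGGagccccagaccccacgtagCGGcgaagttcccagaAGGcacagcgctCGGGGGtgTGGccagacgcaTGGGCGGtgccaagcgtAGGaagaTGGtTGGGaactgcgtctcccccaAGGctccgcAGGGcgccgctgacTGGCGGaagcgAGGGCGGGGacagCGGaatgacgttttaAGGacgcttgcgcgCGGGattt
EIF2AK2, chr2:37156981-37157230, minus strand: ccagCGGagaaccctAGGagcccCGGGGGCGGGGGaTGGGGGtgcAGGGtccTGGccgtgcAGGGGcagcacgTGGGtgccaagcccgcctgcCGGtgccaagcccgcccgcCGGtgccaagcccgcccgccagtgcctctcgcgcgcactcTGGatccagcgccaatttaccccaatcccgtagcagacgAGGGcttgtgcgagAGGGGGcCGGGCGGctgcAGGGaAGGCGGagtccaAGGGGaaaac
CDKN1A, chr6:36678464-36678713, plus strand: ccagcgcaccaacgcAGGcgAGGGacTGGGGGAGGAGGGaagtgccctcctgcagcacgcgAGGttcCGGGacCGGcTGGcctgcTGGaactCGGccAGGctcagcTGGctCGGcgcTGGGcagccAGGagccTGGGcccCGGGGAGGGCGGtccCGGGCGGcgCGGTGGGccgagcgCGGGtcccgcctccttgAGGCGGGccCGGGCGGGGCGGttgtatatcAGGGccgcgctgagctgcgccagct
Counted on both strands with overlaps, NGG occurred 55 times before KIF2C, 76 before EIF2AK2 and 75 before CDKN1A. The median over 35097 such windows was 48, with 31 and 63 as quartiles, and every window held it. All 3 stretches thus lie above the median of windows of that length.

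Outside the 14, the genes with the deepest activation losses in each line are given with their values in the other, and the differences between the lines were not tested. CCNE2 and CCNE1 encode the E cyclins that drive CDK2 at the start of S phase. In RKO, CCNE2 activation guides went from 1456, 758 and 670 to 99, 160 and 56, a median of -3.47, and CCNE1 guides from 1088, 872 and 573 to 308, 113 and 547, a median of -1.80. In SW620 the medians were -0.95 and -0.18, neither called, although all 3 CCNE2 guides were rarer at day 20. The knockout medians of CCNE2 were -0.54 and 0.45 and those of CCNE1 -0.12 and 0.11, so these growth promoters were lower when activated without being called when knocked out. In SW620 the deepest activation loss was that of TP73, a transcription factor that can switch on genes of cell cycle arrest and cell death. Its guides went from 124, 101 and 58 to 5, 0 and 10, a median of -3.70, against 0.11 in RKO. At scaled counts of 5 and 0 the pseudocount of 5 sets much of the fold, so the depth of this loss is uncertain. TP73, CCNE1, CASP8 and EOMES were chosen after their values were seen.

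Among transcription factors of other lineages, EOMES and PRDM1 had SW620 activation medians of -2.76 and -2.45. Of 28 genes on the list of such factors, 3 were lower in SW620, CEBPA at -1.54, PAX6 at -1.35 and PRDM1 (10.7%, against 0.393% of all genes). In RKO 1 was, SNAI2 at -1.12 (3.57%, against 0.835%). The list median of activation was -0.23 in SW620 and -0.10 in RKO, with all genes at 0.00 in both, and 0 of the 28 were lower when knocked out in either line.

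A growth suppressor would be higher when knocked out and lower when activated. Since no gene reached the fold on the high side, each screen's lowest and highest 2.5% of genes were crossed, which is a rule added after the values were seen. In RKO the tails began at 0.47 knocked out and -0.72 activated, and 12 genes (0.0647%) were in both. In SW620 they began at 0.37 and -0.58, and 18 genes (0.0970%) were in both. Tails of this size would share 11.6 genes if they crossed evenly. The values are small beside the spread of single guides, and membership alone shows nothing about a gene.

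In RKO the genes of this corner with the deepest activation loss were AMOTL2 and PRAG1. AMOTL2 encodes an angiomotin, which holds the growth coactivator YAP in the cytoplasm. Its knockout guides went from 740, 359, 324 and 217 to 1131, 425, 496 and 588, and its activation guides from 723, 570 and 396 to 155, 73 and 160. All 4 knockout guides were more frequent at day 20 and all 3 activation guides rarer, with medians of 0.61 and -2.19. In SW620 the activation guides went from 167, 160 and 121 to 79, 62 and 30, a median of -1.30, while the knockout median was 0.10. PRAG1, a pseudokinase, had knockout guides that went from 470, 266, 220 and 204 to 683, 382, 231 and 316 and activation guides from 759, 519 and 451 to 260, 168 and 247. Its medians were 0.52 and -1.53, with every guide on the side of its median, and in SW620 0.26 and -0.24.

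VGLL4, which competes with YAP for the TEAD transcription factors, was also in the corner. Its knockout guides went from 619, 482, 250 and 230 to 1113, 552, 487 and 320, and its activation guides from 592, 561 and 557 to 410, 315 and 232. All 7 guides lay on the side of their median, and the medians were 0.65 and -0.82, the latter short of the fold. In SW620 they were -0.08 and -0.33. The other 9 genes in RKO were AMPD2, FOXN2, OXGR1, RPS4Y1, S1PR2, SCAMP1, SELENOI, ZIC2 and ZNF462, with knockout medians from 0.49 to 0.63 and activation medians from -0.97 to -0.78. RPS4Y1 closely resembles RPS4X, so its guides may not be specific to it. In SW620, which did not choose these 12, 9 had an activation median below 0, against 50.3% of all genes. Of all genes lower when activated in RKO, 74.2% were below 0 in SW620 activation, so the activation count is not particular to the corner. A SW620 knockout median below 0 was found for 5 of the 12, against 49.0% of all genes.

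Since AMOTL2 and VGLL4 are both negative regulators of YAP, the whole list of Hippo pathway suppressors is given. Both are on the list, so its RKO counts and medians include genes already seen to be opposed there. The Hippo pathway is a kinase cascade, from NF2 and SAV1 through the STK3 and STK4 kinases to LATS1 and LATS2 with MOB1A and MOB1B, that keeps YAP and TAZ out of the nucleus. In RKO the 20 genes had a median of 0.39 when knocked out, against 0.02 for all genes, and -0.31 when activated, against 0.00. Of the 20, 13 were above 0 knocked out and below 0 activated (65.0%, against 26.3% of all genes). A knockout median above that of the non-targeting guides was seen for 8 of the 20 (40.0%, against 3.83%). None was called in the knockout screen, and 2, AMOTL2 and LATS2, were called lower when activated.

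The knockout values were highest for VGLL4, AMOTL2 and MOB1A, the last at 0.61, followed by NF2 at 0.58, KIRREL1 at 0.57, AMOTL1 and SAV1 at 0.50 each and the phosphatase PTPN14 at 0.48. NF2, the upstream scaffold, did not show the opposed pattern, since its activation median was 0.44. MOB1A knockout guides went from 874, 738, 636 and 412 to 1051, 1176, 930 and 660, all of them up. LATS2 activation guides went from 771, 623 and 322 to 153, 293 and 173, a median of -1.07, and its knockout median was 0.41. The kinases STK3 and LATS1 lay on the low side when knocked out, at -0.52 and -0.21. The 6 genes for YAP, TAZ and the TEAD factors had medians of -0.08 knocked out and 0.06 activated.

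In SW620 the Hippo list was nearly flat, with medians of 0.05 knocked out and -0.08 activated, 10 of 20 in the opposed pattern (50.0%, against 25.7%) and 10.0% above the non-targeting median against 12.5% of all genes. The exceptions were AMOTL2 and AMOT, both called lower when activated. AMOT, the founding angiomotin, had activation guides that went from 197, 142 and 88 to 109, 52 and 25, a median of -1.37, with a knockout median of 0.35. The difference between the lines was not tested. The zero point matters for all of these values: with libraries scaled on the non-targeting guides alone, the RKO knockout median of the list became -0.04, with 7 of 20 opposed, and the SW620 one -0.17, with 2 of 20.

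**Figure D3:**
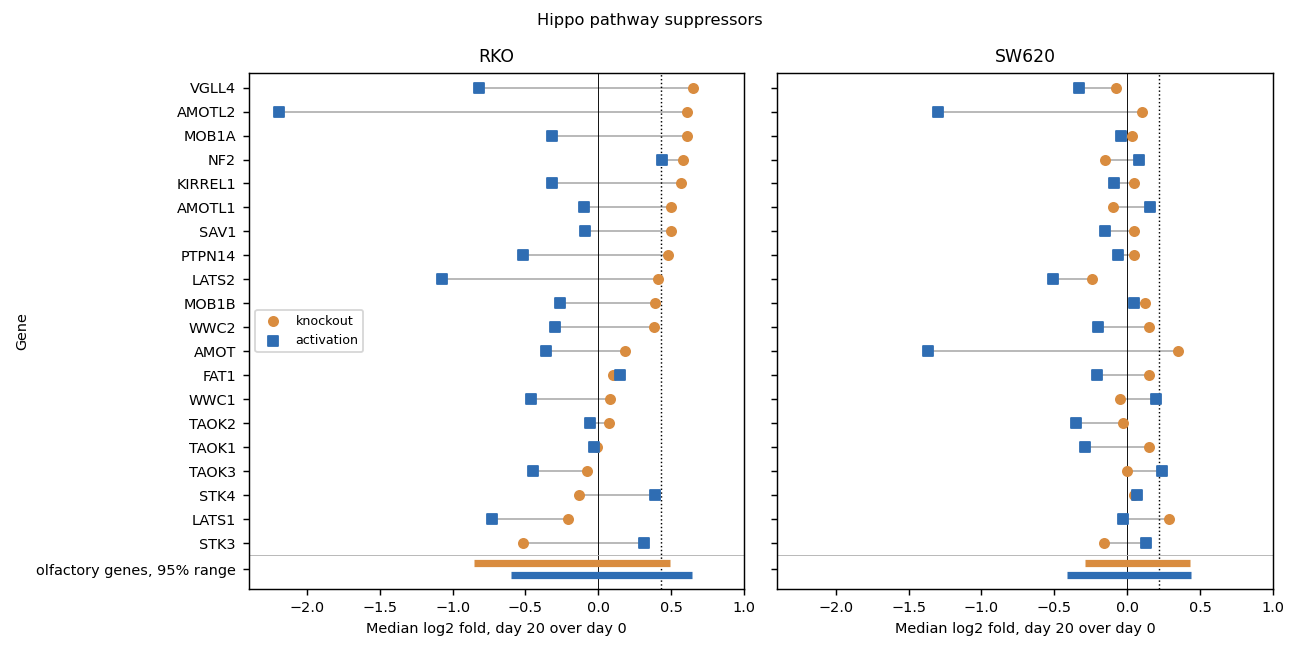
Median log2 fold (day 20 over day 0) of each Hippo pathway suppressor in the knockout (orange circles) and activation (blue squares) screens of RKO (left) and SW620 (right), ordered by the RKO knockout value. The dotted line is the median of non-targeting guides in the knockout screen and the bars at the bottom span the central 95% of olfactory receptor genes; in RKO most circles lie right of 0 and most squares left of it, and AMOTL2 stands apart at -2.19 activated.

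CDKN1A, which encodes the cyclin-dependent kinase inhibitor p21, was lower when activated in RKO, where its guides went from 1168, 603 and 85 to 1141, 264 and 9, a median of -1.17. Its RKO knockout median was -0.09. In SW620 its activation guides went from 154 and 80 to 72 and 64, a median of -0.67, and its knockout guides from 1114, 779, 635 and 378 to 986, 1198, 966 and 418, a median of 0.37. It was therefore in the suppressor corner of SW620, whose 18 genes also included CTNNA1 at 0.51 knocked out and -0.67 activated, the alpha-catenin that links cadherins to actin, and TSPYL2 at 0.47 and -1.77. CTNNA1 was on the same side with every guide: knockout guides went from 1842, 291, 265 and 171 to 2009, 544, 585 and 181, and activation guides from 288, 137 and 135 to 165, 84 and 91. Of the 18 genes, 14 had a RKO activation median below 0 (77.8%, against 50.3% of all genes). Among all genes lower when activated in SW620 this share was 76.7%, so it is not particular to the corner. CCNE2, a growth promoter by its known role, and KIF18B were also in the corner.

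Among other brakes on the cell cycle, CDKN2B was lower when activated in RKO, at -1.37, and CDKN1C in SW620, at -1.41. Of 13 CDK inhibitors, RB family members and cyclin-degrading factors, 3 were lower when activated in RKO (23.1%, against 0.835% of all genes) and 2 in SW620 (15.4%, against 0.393%), with list medians of -0.18 and -0.19. MDM2, a ubiquitin ligase, was lower when knocked out in RKO, where guides went from 567, 159, 139 and 97 to 229, 151, 12 and 0, a median of -2.17. In SW620 the MDM2 knockout median was 0.10, and activation gave -0.07 and -0.25.

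A growth promoter in the opposed sense would be lower when knocked out and higher when activated. In the tails, 16 genes met this in RKO (0.0862%) and 19 in SW620 (0.102%), with activation tails that began at only 0.51 and 0.43. BANF1, a chromatin protein that rebuilds the nuclear envelope, led in RKO: its activation guides went from 953, 891 and 664 to 1341, 1574 and 1239, all up, a median of 0.82, and its knockout median was -4.13. SRSF2, a splicing factor, had -4.05 and 0.74, with activation guides that went from 866, 700 and 697 to 1447, 802 and 1171. GGPS1, which makes the lipid geranylgeranyl diphosphate, had -5.28 and 0.72, but 1 of its 3 activation guides was rarer at day 20. The activation medians of BANF1, SRSF2 and GGPS1 were all below the highest olfactory receptor median of 0.91. BANF1 and SRSF2 each had a knockout guide that was hardly lost, at -0.15 and -0.03. In SW620 these genes had activation medians of -0.09 for BANF1, -0.14 for SRSF2 and 0.27 for GGPS1. Of the 16 RKO genes 8 had a SW620 activation median below 0 (50.0%, against 50.3% of all genes).

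In SW620, ZNHIT3, a factor in the assembly of box C/D small nucleolar particles, had a knockout median of -2.01 and activation guides that went from 143, 118 and 79 to 180, 193 and 131, all up, a median of 0.68. RPS26, a ribosomal protein, had -1.51 and 0.52. In RKO, ZNHIT3 was lower when knocked out and had an activation median of 0.40, with its 3 guides going from 665, 594 and 399 to 782, 787 and 535. Of the 18 genes of this corner evaluated in RKO, 13 had the same pair of signs there, against 23.8% of all RKO genes. All 18 had a RKO knockout median below 0, so only the activation sign could differ. Among all genes lower in SW620 knockout, 139 of 247 had this pair of signs in RKO. When knocked out in RKO, 17 of the 18 corner genes were called lower (94.4%). This held for 94.3% of all genes lower in SW620 knockout, so that count is not particular to the corner.

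The corner of genes high in both screens held 14 genes in RKO (0.0755%) and 14 in SW620 (0.0754%), among them 3 olfactory receptors in RKO and 1 in SW620. The corner of low values held 11 genes in RKO (0.0593%) and 14 in SW620 (0.0754%).

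The known drivers of the lines served as the check of the labels. In RKO, BRAF was lower when knocked out, with guides that went from 408, 266, 262 and 177 to 184, 97, 101 and 131, a median of -1.23. So was WRN, the helicase on which cells with unstable microsatellites depend, at -2.93. In SW620 the knockout medians of BRAF and WRN were 0.39 and 0.13. CTNNB1, the beta-catenin that APC loss sets free, had knockout medians of -0.87 in SW620 and 0.28 in RKO. MYC was lower when knocked out in both, at -2.51 and -1.51. Activation of these genes moved little: BRAF had 0.07 and 0.23, MYC 0.19 and -0.09 and WRN -0.44 and 0.06 in RKO and SW620, while CTNNB1 had -0.26 and -0.64. SLC43A1, an amino acid transporter, had -0.23 knocked out and 0.23 activated in RKO and 0.37 and -0.05 in SW620.

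**Figure D4:**
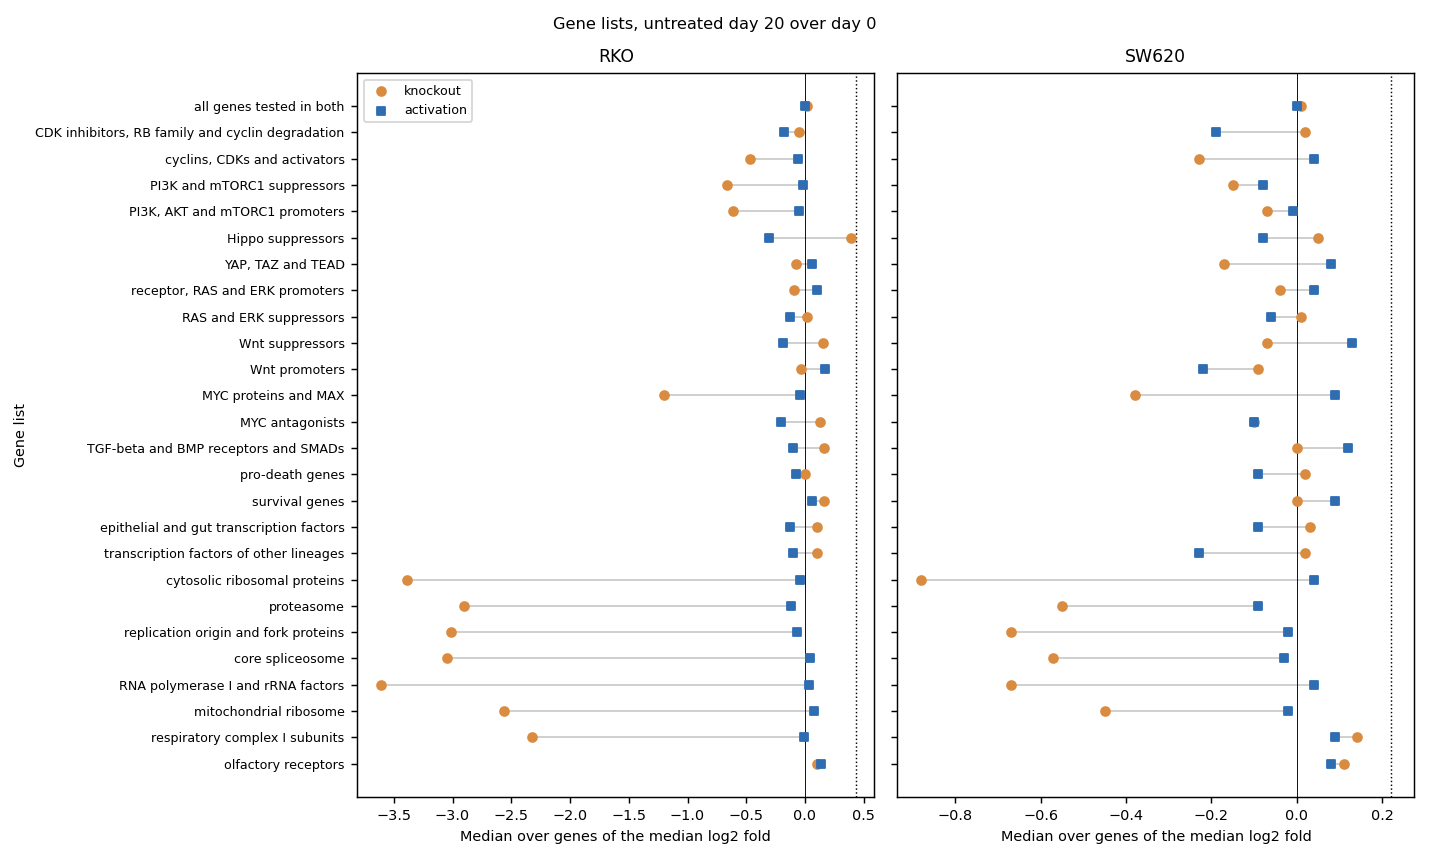
Median over the genes of each list of the gene medians (log2 fold, day 20 over day 0) in the knockout (orange circles) and activation (blue squares) screens; the horizontal scales differ between RKO (left) and SW620 (right) and the dotted line is the median of non-targeting guides in the knockout screen. Lists of machinery lie to the left of 0 when knocked out, except respiratory complex I in SW620 at 0.14, whereas activation medians of all lists stay within 0.31 of 0.

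Lists of other regulators of growth are given by their medians. In RKO, Wnt suppressors had medians of 0.15 knocked out and -0.19 activated and Wnt promoters -0.03 and 0.17. In SW620 they had -0.07 and 0.13, and -0.09 and -0.22. RAS and ERK suppressors had 0.02 and -0.13 in RKO, where 4 of 16 were above 0 knocked out and below 0 activated (against 26.3% of all genes), with RASA2, which switches RAS off, lower when activated at -1.12. MYC antagonists had 0.13 and -0.20 in RKO, with MXI1, a competitor of MYC for its partner MAX, lower when activated at -1.65. In SW620 the MYC antagonists had -0.10 in both screens, and 5 of 6 were below 0 in both. PI3K and mTORC1 suppressors had a knockout median of -0.66 in RKO, with 5 of 15 lower (33.3%, against 11.9% of all genes). None of these 15 was lower when activated in RKO, where their activation median was -0.02. Of 36 subunits of respiratory complex I, 28 were lower when knocked out in RKO and 0 in SW620, a difference that was not tested, and the list medians when activated were -0.01 and 0.09.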

How the data were processed

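Guides were sequenced from the genomic DNA of 8 untreated libraries, 1 per condition. Per the file headers, the authors deposited raw counts of every guide, and a second table per screen that holds a normalized signal, the counts times a constant per library. The submitters' processing notes name cutadapt 4.0 and MAGeCK 0.5.7. Their settings, and a genome build, are not given in the sources used here. Total counts are given per library above. All columns were matched to samples by name.

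Size factors were median ratios across all guides of a screen's 2 libraries. A guide's log2 fold used a pseudocount of 5, and guides with a mean scaled count under 20 were left out. A gene needed 3 guides (knockout) or 2 (activation). Its value is the median of its guides, which are separate perturbations in the same libraries and not replicates. A count model has no residual degrees of freedom here, so edgeR 4.0.16 (R 4.3.3) supplied TMM scaling only, as an alternative. The other steps used Python 3.11.15, pandas 2.3.3 and matplotlib 3.10.9, and the calls were checked on simulated counts. Older symbols were updated through RefSeq's GRCh38.p14 gene table where unambiguous: 1111 of 19114 knockout and 803 of 18886 activation symbols.

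Genes named by rule were those with the largest joint size in each class (up to 10), list members called in both screens or with the largest values (up to 3 per list), and 11 landmark genes. All other genes in the text, among them the further members of the RKO class, of the tails and of the set shared by both lines, were chosen after their values were seen. The members and the 27 gene lists were chosen with earlier results of these data known. Counting errors cover sampling of reads only, since amplified reads carry no molecular identifiers and may be copies. Some genes are not reported here.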

Additional observations from a re-analysis of the deposited data

Results flagged for a closer look

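FAU, the gene of a small-subunit ribosomal protein, went in opposite directions when activated in the 2 lines: its median log2 fold was -1.28 in RKO and 0.51 in SW620. In RKO the 2 guides themselves disagreed, at 0.46 and -3.01, while in SW620 both were above 0, at 0.49 and 0.54. AMPD2, an AMP deaminase, had a knockout median of 0.63 in RKO and -0.34 in SW620, and SCAMP1, a membrane protein of secretory vesicles, an activation median of -0.97 in RKO and 0.45 in SW620. All 3 genes lay outside the central 95% of olfactory receptor genes on opposite sides in the lines. These differences were not tested, and each line has 1 library per time point. No group of libraries was large enough to look for a library far from the others.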

How the results depend on the processing

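Among 141 genes, those named and their class members, 1 called median changed sign under the alternatives for pseudocount, filter and scaling: ANKH activation in SW620 was 0.18 without the filter on low guides, which adds a guide. Of their 564 medians, 298 moved beyond counting error with scaling on non-targeting guides, 269 with olfactory receptors at 0, 69 with the authors' normalized values, 37 with a pseudocount of 1, 6 without the filter on low guides and 1 with the filter on day 0 alone. The count of called genes depended most on the fold. At 1.5 activation lowered 38 genes in RKO and 24 in SW620, and knockout lowered 55 in SW620. At 0.7 these were 524, 248 and 676, and at 0.5, a value added after seeing the data, 1330, 715 and 1298. Rises then appeared: at 0.7, 33 genes in RKO knockout, 86 in RKO activation, 3 in SW620 knockout and 5 in SW620 activation, and at 0.5, 356, 498, 69 and 184. With a pseudocount of 1, 1 gene rose in RKO activation, and with the authors' normalized values 2.

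Genes lower in both numbered 3, 73 and 221 in RKO at folds of 1.5, 0.7 and 0.5, and 1, 10 and 51 in SW620. The RKO count was 32 with scaling on non-targeting guides, 29 with olfactory receptor genes set to 0, and 10 with the authors' normalized values. The SW620 count was 1 without the filter on low guides, with every guide on the same side of 0, or with symbols as deposited. Scaling on non-targeting guides also gave 534 genes lower in SW620 knockout, and olfactory receptors at 0 gave 253 lower in RKO activation. Genes lower knocked out and higher activated numbered 10 at 0.7 and 83 at 0.5 in RKO, and 16 at 0.5 in SW620. The reverse class held 24 in RKO and 1 in SW620 at 0.5, and the class higher in both held 1 at 0.7 and 12 at 0.5 in RKO. For tails of 1% the 4 corners (lower in both, promoter-like, suppressor-like, higher in both) held 3, 2, 1 and 5 genes in RKO and 3, 4, 2 and 0 in SW620, and for 5%, 49, 48, 47 and 55, and 46, 49, 58 and 53. The cause of these shifts other than the changed limits was not tested.

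Scaling on non-targeting guides moved the median of all genes in the knockout screens from 0.02 to -0.41 in RKO and from 0.01 to -0.22 in SW620. Under it the suppressor-like corners kept all 12 and 18 genes above 0 when knocked out, but only by 0.06 to 0.23 and 0.15 to 0.29. TMM factors and total counts left every count within 1.5 times. No paired analysis was possible because each condition has 1 library and the labels give no replicate numbers, and no library could be left out for the same reason. Depth was lowest in SW620 activation at day 20.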
